A study of Mus musculus with 16 samples.

Results

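The genes of the MHC class II presentation pathway were followed in mouse mammary adipose tissue by RNA-Seq. The set held 10 genes of 23179 listed, chosen by name for their place in the pathway: H2-Aa, H2-Ab1, H2-Eb1, H2-DMa, H2-DMb1, H2-DMb2, H2-Oa, H2-Ob, Cd74 and Ciita. All 10 were found in the expression table and all 10 passed the filter on low values, which left 21218 genes for testing. The tissue came from the mammary fat pad on the side opposite an E0771 tumor, a mouse mammary cancer line injected in every group 22 weeks after the mice were first assigned to a diet. The wild type female C57BL/6N mice (C57BL/6NCrl in the methods) were young adults when the diets began. Control mice stayed lean on the low-fat diet D12450J (CON-LFD). Obese mice had been fed D12492, a diet with 60% fat, and either stayed on it (DIO-HFD), changed to D12450J with a sham operation (DIO-LFD), or had vertical sleeve gastrectomy, the removal of part of the stomach, followed by D12450J (DIO-VSG). CON-LFD and DIO-HFD mice had the sham operation too, so every group carried surgery and tumor. Each group had 4 libraries from separately numbered mice, and P values measure the spread between these libraries.

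MHC class II molecules carry peptides taken up from outside the cell to the surface, where CD4+ T cells read them. They are made mainly by B cells, dendritic cells and activated macrophages, and adipose tissue holds such cells among its adipocytes. The class II chains are assembled with the invariant chain, whose last fragment is exchanged for a peptide by the DM protein. DO restrains DM, and CIITA is a main coactivator of class II genes.

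Class II genes are known for a promoter layout that they share. Its letters are shown here for the 4 genes in which an exact search found both boxes in order. Also shown are 2 genes in which that search did not. CIITA acts through proteins bound to an X box and a Y box. The letters GCAAC, part of the X box, and ATTGG, the Y box read as an inverted CCAAT, were searched on both strands in windows running from 250 bases before to 50 bases after the annotated start (RefSeq, GRCm38.p6). Of the 10 genes, 7 were matched in that table. GCAAC was present on either strand in 5 of the 7 and in 35.2% of all 32851 windows, and ATTGG in 7 of the 7 and in 37.4% of all windows. GCAAC followed on the same strand by ATTGG with 15 to 35 bases between was present in 4 of the 7, and in 1.02% of all windows. The stretches below run 5′ to 3′ on the strand of the gene, with GCAAC and ATTGG in capitals. All lie in the class II region, where 8 of the 10 genes sit.
H2-Aa, minus strand, chr17:34287857-34287929: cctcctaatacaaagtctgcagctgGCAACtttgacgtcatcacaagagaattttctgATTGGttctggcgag
H2-Eb1, plus strand, chr17:34305751-34305822: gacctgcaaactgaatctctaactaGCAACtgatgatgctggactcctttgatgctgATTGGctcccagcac
H2-Oa, plus strand, chr17:34092278-34092350: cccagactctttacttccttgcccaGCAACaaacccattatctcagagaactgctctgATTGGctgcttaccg
H2-Ob, plus strand, chr17:34238793-34238862: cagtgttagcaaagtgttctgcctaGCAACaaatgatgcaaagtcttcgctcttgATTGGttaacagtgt
H2-DMb1, plus strand, chr17:34153070-34153144: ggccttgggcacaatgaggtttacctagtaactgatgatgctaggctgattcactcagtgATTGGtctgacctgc
H2-DMb2, plus strand, chr17:34145099-34145173: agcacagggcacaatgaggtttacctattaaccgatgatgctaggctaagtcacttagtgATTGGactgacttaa

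In the first 4 stretches the X box letters started 76 to 91 bases before the annotated start and the spacing to the Y box letters was 25 to 28 bases. H2-DMb1 and H2-DMb2, the 2 genes for a DM beta chain in the mouse, are shown because they look alike here and differed widely in their span over libraries, as described below. Aligned on ATTGG, their stretches were identical at 62 of 75 bases (82.7%), and neither held the letters GCAAC on the strand of the gene. H2-DMa, which is not shown, is the fifth gene with GCAAC, which it held on the opposite strand only and in another window than ATTGG. Beside GCAACtgatgatgc in H2-Eb1, H2-DMb1 held gtaactgatgatgc and H2-DMb2 ttaaccgatgatgc, which an exact search does not count. A match of letters is a description and not a bound site, and a missing match does not show that the box is absent.

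Depth was similar across libraries, at 46907377 to 57610899 reads. Markers of the labelled tissue were present: the summed normalized count of 10 adipocyte markers was 567379 to 2051720 per library, and that of 10 mammary epithelial markers 34746 to 139448. Markers of lymphoid cells set libraries of the same group apart. The summed count of 10 B cell markers ranged from 518 to 80318 in CON-LFD, from 1597 to 106634 in DIO-HFD, from 19235 to 43555 in DIO-LFD and from 72073 to 83944 in DIO-VSG, and Ms4a1, Cd79a and Pax5 were above 0 in every library. Lymph node stroma markers went with them, at 700 to 49890, 302 to 63369, 18096 to 25003 and 38861 to 51945 in the same order, over the 6 of 7 markers that were listed. Removal of a lymph node from the fat pad was not described in the methods. In tissue RNA of this kind, fewer cells of a type and less RNA per cell cannot be told apart. The part of these markers in each result below was not tested beyond the values given.

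By the GENCODE M21 annotation of GRCm38, 8 of the 10 genes are protein-coding genes of chromosome 17, in the order H2-Oa (chr17:34092340-34095234), H2-DMa (chr17:34119541-34139101), H2-DMb2 (chr17:34143307-34151555), H2-DMb1 (chr17:34153072-34160230), H2-Ob (chr17:34238903-34254414), H2-Ab1 (chr17:34257689-34269419), H2-Aa (chr17:34282744-34287823) and H2-Eb1 (chr17:34305867-34316674). Each has 5 or 6 exons. Ciita lies apart, at chr16:10480059-10528418 with 19 exons, as does Cd74, at chr18:60803848-60812652 with 9 exons. Neighbours on the chromosome did not always have the same pattern below: H2-DMb2 and H2-DMb1 are adjacent in this list.

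The 10 genes were present at very different levels. Per kb of transcript, Cd74 was highest, with a median over the 16 libraries of 50205 normalized counts per kb. Next in level were H2-Aa at 24009, H2-Ab1 at 17973 and H2-Eb1 at 17717, and the ranges of these 3 overlapped widely. H2-Ob at 2467, H2-DMb2 at 2410, H2-DMb1 at 1698 and H2-DMa at 1402 formed a lower tier, and Ciita at 909 and H2-Oa at 843 were lowest. This order of medians did not hold in every library: per kb, H2-Ob lay below Ciita in CON-LFD 2, CON-LFD 4 and DIO-HFD 3, and H2-DMb2 did in CON-LFD 2 and DIO-HFD 3. In CON-LFD 2, H2-DMb2 was at 38.7 normalized counts per kb and Ciita at 79.1. The ranges of neighbours within a tier overlapped over libraries, although within each library H2-Aa lay above H2-Ab1.

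The classical class II chains and the invariant chain varied together and over a moderate range. H2-Aa encodes the alpha chain of the I-A molecule. In CON-LFD replicates 1 to 4 it was at 17063, 8358, 39353 and 25134 normalized counts, and in DIO-HFD at 53906, 16093, 8833 and 35890. In DIO-LFD it was at 10916, 22891, 29030 and 24919, and in DIO-VSG at 37847, 39950, 34512 and 37074. The lowest and the highest library both lay in CON-LFD or DIO-HFD, whereas the DIO-VSG libraries were within 1.16-fold of one another and overlapped both of those groups. H2-Ab1, the partner beta chain, ran from 6308 to 38523, and H2-Eb1, the beta chain of the I-E molecule, from 6658 to 38773. Both extremes of each were DIO-HFD libraries, replicate 3 at the bottom and replicate 1 at the top.

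Cd74 encodes the invariant chain, the chaperone that fills the peptide groove until the molecule reaches the endosome. It was at 47289, 19222, 101569 and 60931 normalized counts in CON-LFD and at 140589, 37954, 21714 and 90551 in DIO-HFD. In DIO-LFD it was at 28340, 65392, 76186 and 63543, and in DIO-VSG at 94460, 99725, 87844 and 88589. The library order was nearly that of H2-Aa. Per kb, Cd74 was 2.55 to 3.22 times H2-Ab1 in every library, H2-Aa was 1.27 to 1.55 times H2-Ab1, and H2-Eb1 was 0.942 to 1.17 times H2-Ab1. These genes therefore held to a nearly fixed ratio while their levels moved 5.8-fold to 7.3-fold across libraries.

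The DM genes divided. H2-DMa, the DM alpha chain, ran from 464 in CON-LFD replicate 2 to 4509 in DIO-HFD replicate 1. H2-DMb1, a DM beta chain, was at 1580, 778, 3047 and 2375 normalized counts in CON-LFD, at 3792, 1465, 1278 and 2724 in DIO-HFD, at 1033, 1903, 2393 and 2040 in DIO-LFD and at 3059, 3017, 2782 and 2699 in DIO-VSG. Its span over the 16 libraries, 4.9-fold per kb, was the narrowest of the 10 genes. H2-DMb2, the second DM beta chain gene, was at 1623, 55.1, 5951 and 486 in CON-LFD and at 8420, 393, 116 and 4929 in DIO-HFD. It was at 1566, 3636, 3229 and 3054 in DIO-LFD and at 6472, 6077, 6177 and 5776 in DIO-VSG. That span was 152.7-fold.

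The ratio of the 2 beta chain genes therefore moved from library to library. H2-DMb2 per kb was 0.0698 times H2-DMb1 in CON-LFD replicate 2, 0.0892 times in DIO-HFD replicate 3, 0.202 times in CON-LFD replicate 4 and 0.264 times in DIO-HFD replicate 2. In the other 12 libraries it was 1.01 to 2.19 times, and in the DIO-VSG libraries 1.99 to 2.19 times. In stretches of 76 bases, the read length, 251 of 1329 in H2-DMb1 (18.89%) also occurred in H2-DMb2, and 277 of 1349 in H2-DMb2 (20.53%) occurred in another gene, so reads there could have been divided. For the other 8 genes the share was 0%.

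H2-Oa and H2-Ob, which encode the 2 chains of DO, the inhibitor of DM best known from B cells, had the widest spans with H2-DMb2. H2-Ob was at 2171, 59.4, 8319 and 159 normalized counts in CON-LFD and at 10166, 436, 98.2 and 6974 in DIO-HFD. It was at 1833, 4087, 3946 and 4061 in DIO-LFD and at 8661, 8120, 9085 and 7496 in DIO-VSG. H2-Ob thus spanned 171.2-fold. The libraries CON-LFD 2, CON-LFD 4, DIO-HFD 2 and DIO-HFD 3 lay below all the others.

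H2-Oa was at 466, 41.3, 1677 and 41.2 normalized counts in CON-LFD and at 2271, 117, 20.7 and 1395 in DIO-HFD. It was at 388, 954, 880 and 849 in DIO-LFD and at 1840, 1766, 1512 and 1530 in DIO-VSG. The same 4 libraries were lowest, and the lowest of them, DIO-HFD replicate 3, held 19 reads of this gene. H2-Oa shares 321 exon bases with BC051537 on the opposite strand. Relative to H2-DMa per kb, H2-Oa was 0.0277 to 0.153 in those 4 libraries and 0.472 to 0.873 in the other 12.

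**Figure D1:**
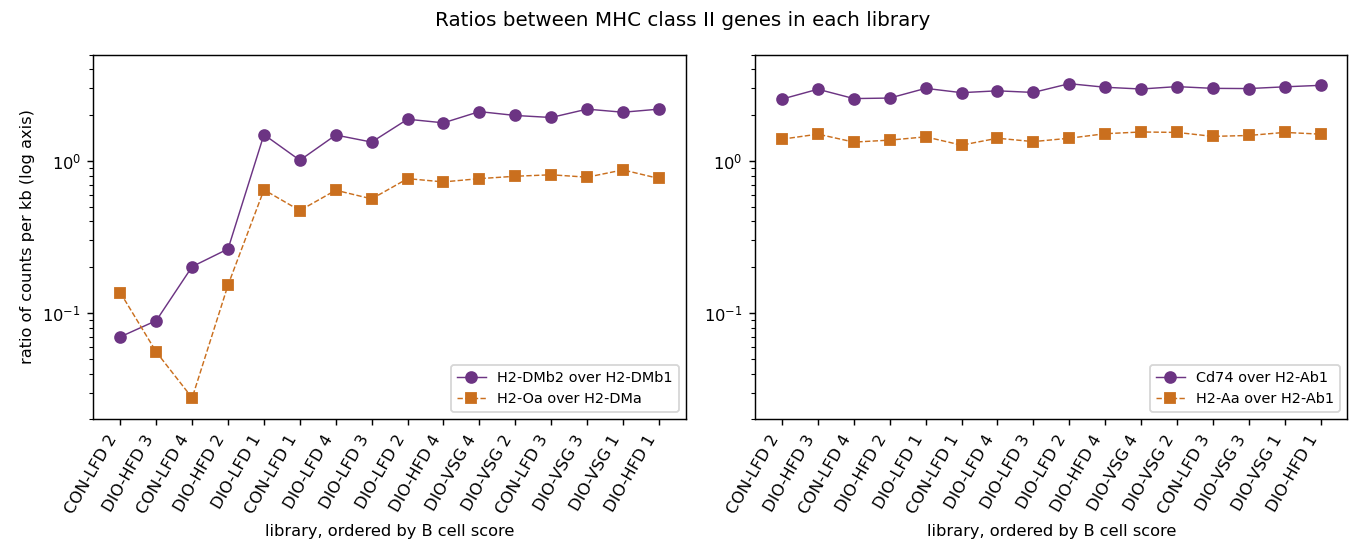
Ratios of normalized counts per kb between class II genes in each library, on a log axis, with the libraries ordered by the B cell score. H2-DMb2 over H2-DMb1 and H2-Oa over H2-DMa (left) are lowest in the 4 libraries at the left end, whereas Cd74 over H2-Ab1 and H2-Aa over H2-Ab1 (right) stay between 2.55 and 3.22 and between 1.27 and 1.55.

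Ciita, the transactivator, fell between these 2 patterns. It was at 1518, 335, 5815 and 1088 normalized counts in CON-LFD, at 8570, 768, 479 and 5210 in DIO-HFD, at 1456, 4157, 3546 and 2896 in DIO-LFD and at 4904, 6053, 5173 and 4553 in DIO-VSG. The span was 25.6-fold, wider than that of the class II chains and narrower than that of DO. Ciita shares 329 exon bases with Dexi on the opposite strand, and H2-DMa shares 360 with Brd2, so their reads are separated only where strand was used in counting.

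**Figure D2:**
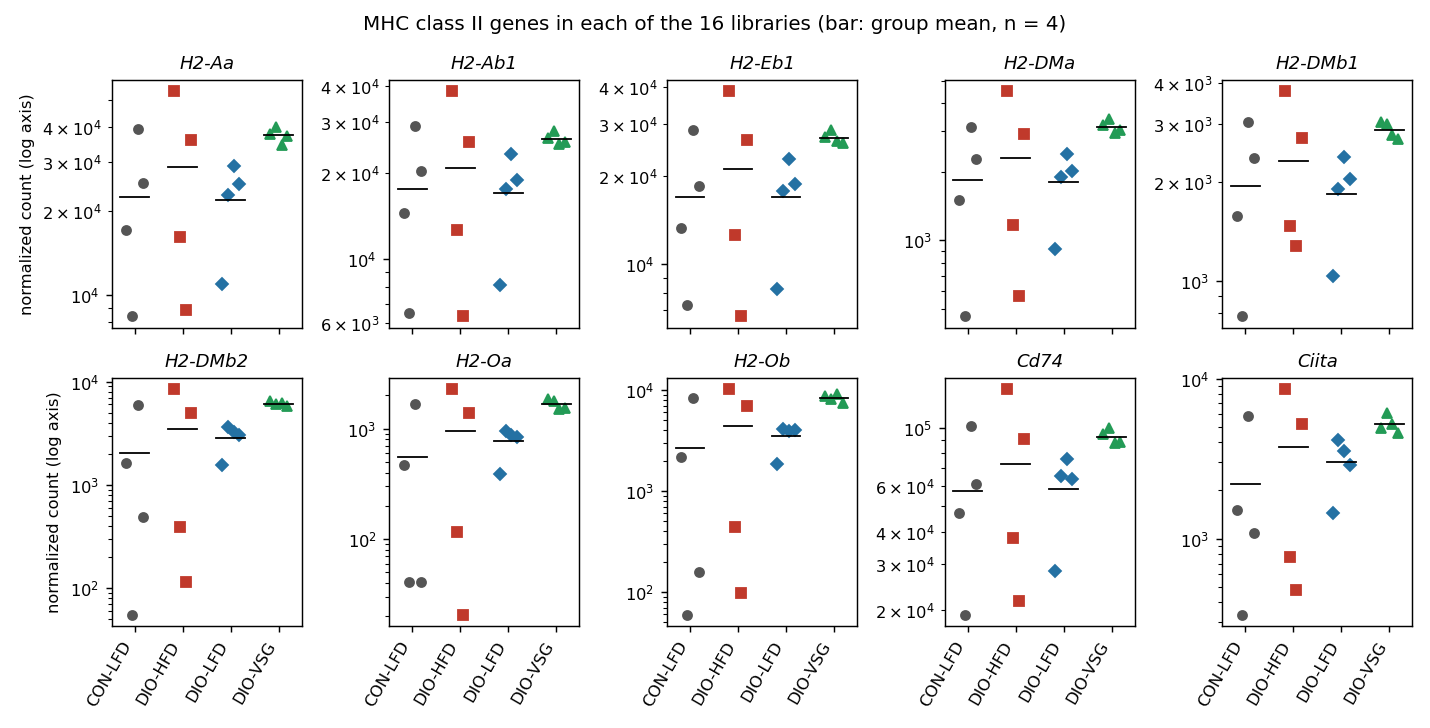
Normalized counts of the 10 class II genes in each library (points, log axis, one panel a gene) by group, with the mean of the 4 libraries as a bar. DIO-VSG libraries lie close together in every panel, and CON-LFD and DIO-HFD libraries spread widely, most of all for H2-DMb2, H2-Oa and H2-Ob.

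The genes with the widest spans followed the B cell markers most closely, and lymphoid markers of other kinds were followed in a like order. A B cell score was computed for each library by centring the log2 values of each marker on its own mean and averaging the 10 markers. Pearson's r with this score over the 16 libraries was 0.998 for H2-Ob, 0.989 for H2-DMb2, 0.980 for H2-Oa and 0.962 for Ciita. It was 0.859 for Cd74, 0.851 for H2-DMa, 0.830 for H2-Aa, 0.823 for H2-Eb1, 0.816 for H2-Ab1 and 0.779 for H2-DMb1. With the T cell score r ran from 0.776 (H2-DMb1) to 0.979 (H2-Oa), with the lymph node stroma score from 0.701 (H2-DMb1) to 0.984 (H2-Ob), and with the adipocyte score from -0.822 (H2-Eb1) to -0.699 (H2-DMb2). With a score of 10 dendritic cell markers, r was 0.884 to 0.947 for all 10 genes, and with a score of 10 macrophage markers it was -0.198 to 0.120. The points share libraries and depth, and these values are a description.

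CON-LFD replicate 4 showed the separation most plainly. Its Ms4a1, which encodes the B cell marker CD20, was at 89.4 normalized counts, and its Adgre1, which encodes the macrophage marker F4/80, was at 18530, against at most 2914 in any other library. Not every marker was as far apart: its Mertk at 2609 and Fcgr1 at 388, of the macrophage list, and its Blnk at 2509, of the B cell list, lay within the range of the other libraries. H2-Aa in that library was at 25134 and H2-Ab1 at 20355, near the middle of all libraries, while H2-Ob was at 159 and H2-Oa at 41.2. Its summed macrophage markers were at 104951, and those of the other 15 libraries at 16086 to 54680. CON-LFD replicate 2, with the lowest sums of both B cell and macrophage markers, held 8358 counts of H2-Aa and 59.4 of H2-Ob.

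**Figure D3:**
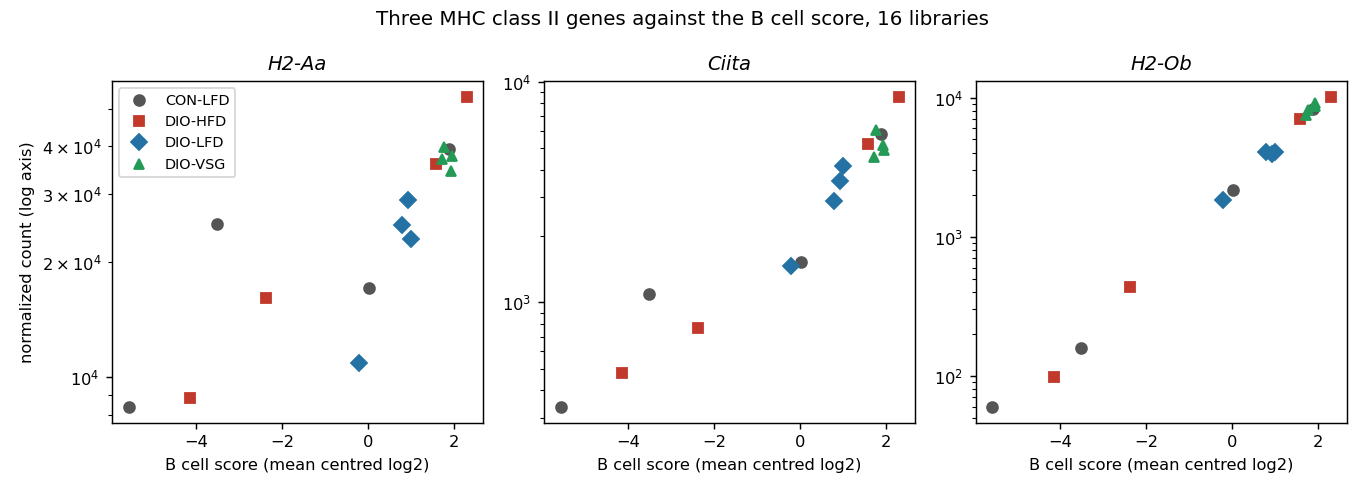
Normalized counts (log axis) of H2-Aa, Ciita and H2-Ob against the B cell score (mean centred log2 value) in the 16 libraries, with groups marked by shape. H2-Ob follows the score across its whole range (r = 0.998), whereas H2-Aa in CON-LFD replicate 4 is at 25134 despite a score of -3.52.

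**Figure D4:**
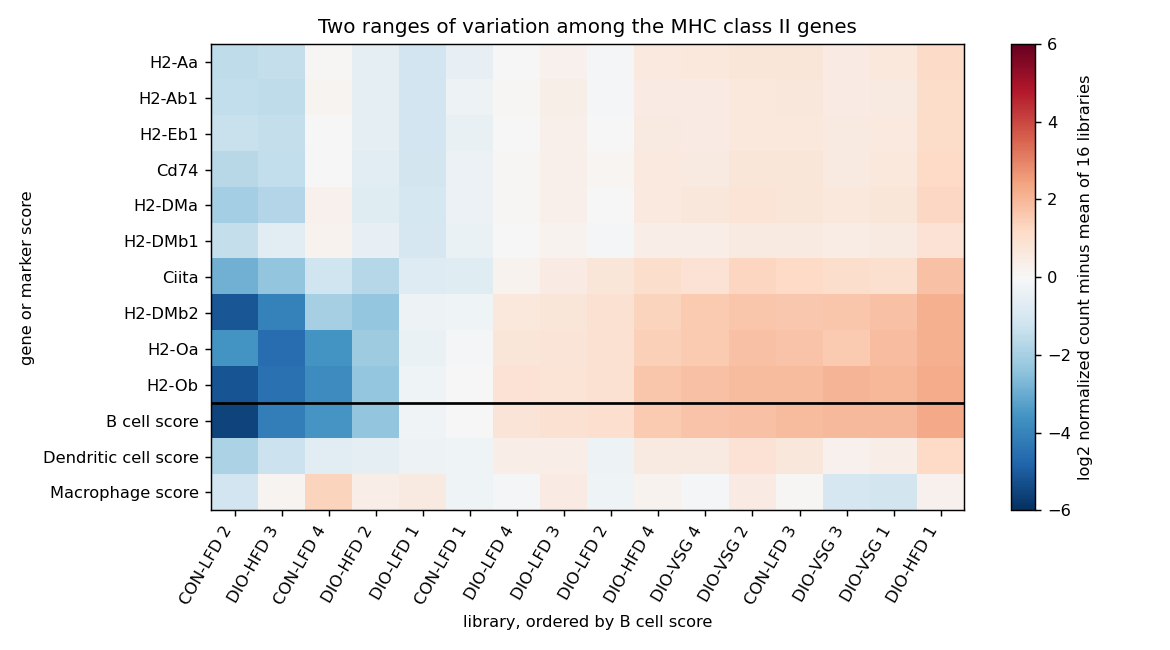
Log2 normalized counts of the 10 genes minus the mean of each gene over 16 libraries (color), above the scores of B cell, dendritic cell and macrophage markers, with libraries ordered by the B cell score. The rows of H2-DMb2, H2-Oa and H2-Ob resemble the B cell score, which runs from -5.57 to 2.29, and the 6 rows at the top vary less.

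The spread within groups was itself a difference between them. The SD of log2 values among the 4 DIO-VSG libraries was 0.06 to 0.17 for the 10 genes, with a median of 0.09, against a median of 0.21 over all tested genes, and 10 of the 10 lay below that median. In DIO-LFD the SD was 0.53 to 0.67, in CON-LFD 0.83 to 3.29 and in DIO-HFD 0.74 to 3.21. The medians over all tested genes in those groups were 0.26, 0.35 and 0.38, and 0 of the 10 lay below them. The B cell score ran from 1.72 to 1.94 in DIO-VSG, from -0.20 to 0.99 in DIO-LFD, from -5.57 to 1.88 in CON-LFD and from -4.15 to 2.29 in DIO-HFD. The difference in spread was not tested.

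The comparison of DIO-VSG with DIO-LFD set the 2 routes of weight loss side by side, and in it the class II genes were separated most cleanly. For each of the 10 genes, all 4 DIO-VSG libraries lay above all 4 DIO-LFD libraries. Over all tested genes 12.9% were separated in this direction. H2-Ob was at 8340 ± 688 normalized counts in DIO-VSG and 3480 ± 1100 in DIO-LFD (SD, n = 4 each). The mean of Cd74 was 92700 ± 5570 against 58400 ± 20800, and that of H2-Aa 37300 ± 2250 against 21900 ± 7780. The log2 difference, DIO-VSG minus DIO-LFD, was 1.33 for H2-Ob, 1.19 for H2-Oa, 1.16 for H2-DMb2, 0.89 for H2-DMa, 0.87 for Ciita and 0.85 for H2-Aa. It was 0.77 for H2-Eb1, 0.76 for Cd74, 0.73 for H2-Ab1 and 0.71 for H2-DMb1. The median of the 10 was 0.86, and that of all tested genes -0.02. Without DIO-LFD replicate 1 the median of the 10 was 0.55, with Cd74 at 0.44, H2-Ab1 at 0.41 and Ciita at 0.56.

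None of these differences passed the test in the fit of all 16 libraries, whose error is pooled over groups with very different spread. By limma with Benjamini-Hochberg adjustment, 0 of the 10 genes passed an adjusted P value of 0.05 and 0 passed an unadjusted P value of 0.05. The adjusted P values were 0.529 to 0.698, with SEs of 0.41 (H2-DMb1) to 1.51 (H2-Ob). Over all tested genes 0% passed the adjusted threshold, and 4.3% were higher at the unadjusted one. When the 8 libraries of these 2 groups were fitted alone, 3 of the 10 passed by limma, at adjusted P values of 0.0222 for H2-Ob, 0.0284 for H2-DMb2 and 0.0376 for H2-Oa, and the other 7 had adjusted P values of 0.0827 to 0.159. In that fit 7.22% of all tested genes passed, 1533 of 21218. The B cell markers were separated in the same way, 10 of 10, with a median difference of 1.22, and the T cell markers 10 of 10 with a median of 1.45. Of the dendritic cell markers 5 of 10 were higher without overlap, with a median of 0.55, and of the lymph node stroma markers 4 of 6, with a median of 1.27. The macrophage markers were lower in mean in 10 of 10, with a median of -0.55, as were the adipocyte markers, with a median of -0.42, and 0 of either list passed the adjusted threshold by limma. In a fit with a term for the B cell score, the median of the 10 class II genes was 0.37, and with a term for the macrophage score it was 1.06.

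**Figure D5:**
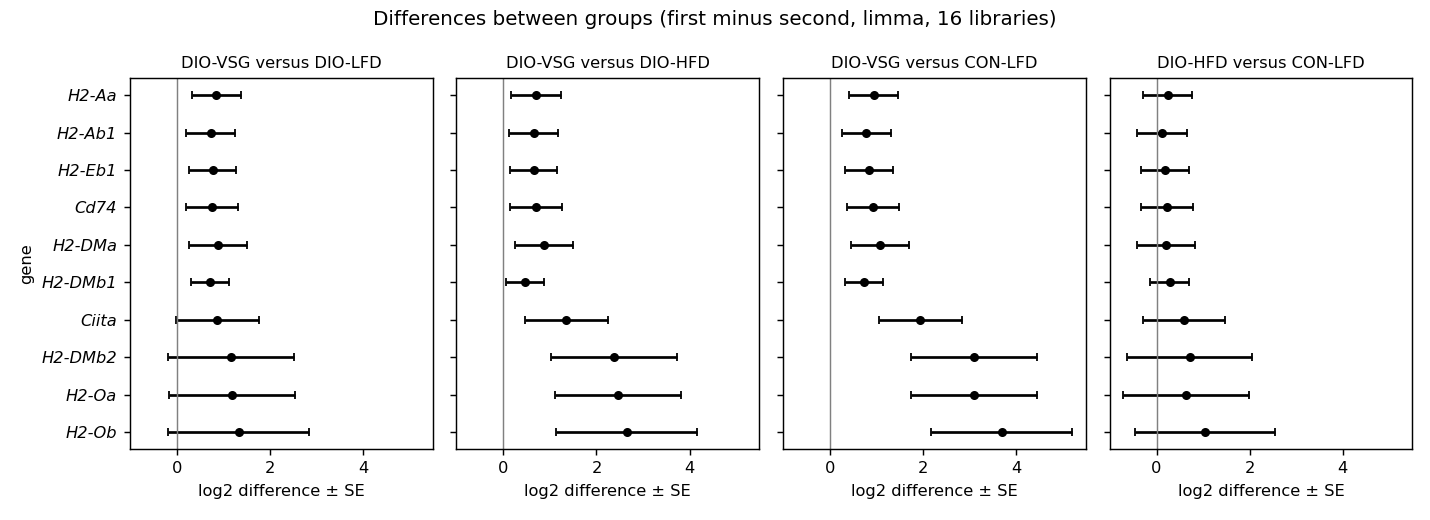
Log2 differences between groups (first named minus second) with their SE for the 10 class II genes, from the limma fit of 16 libraries, in 4 of the 6 comparisons. H2-DMb2, H2-Oa and H2-Ob have the longest bars, with SEs of 1.35 to 1.51, and the largest differences in the comparisons of DIO-VSG with DIO-HFD and CON-LFD.

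Surgical weight loss was set against continued obesity by subtracting DIO-HFD from DIO-VSG, groups that differ in both operation and diet. The means of all 10 genes were higher in DIO-VSG, and the groups overlapped for every gene. DIO-HFD replicate 1 lay above the DIO-VSG libraries, and replicate 4 lay in their range for H2-Aa, H2-Ab1, H2-Eb1, H2-DMb1, Cd74 and Ciita. H2-Ob was at 4420 ± 4970 in DIO-HFD (SD, n = 4). Its log2 difference was 2.65 (SE 1.51), that of H2-Oa 2.46 and that of H2-DMb2 2.38. Ciita differed by 1.35, H2-DMa by 0.87, H2-Aa and Cd74 by 0.70 each, H2-Ab1 and H2-Eb1 by 0.65 each and H2-DMb1 by 0.46. The median was 0.79. Without DIO-HFD replicate 3 it was 0.29, with H2-Aa at 0.25, Cd74 at 0.24, H2-Ab1 at 0.19, Ciita at 0.66 and H2-Ob at 1.41. By limma, 0 of the 10 passed the adjusted threshold (adjusted P values 0.407 to 0.569) and 0 the unadjusted one. Among all tested genes 0% passed the adjusted threshold, 5.05% were higher at the unadjusted one and 2.37% were higher without overlap. The B cell markers had a median difference of 2.70, the T cell markers of 2.16 and the lymph node stroma markers of 2.75. With a term for the B cell score the median of the 10 class II genes was -0.05. The macrophage markers were lower in mean in 10 of 10, with a median of -0.62 and 0 past the adjusted threshold, and with a term for the macrophage score the class II median was 1.08. With libraries weighted by their fit that median was 0.10, with H2-Aa at 0.10, Cd74 at 0.08 and Ciita at 0.10. Without the 4 libraries of lowest B cell score, 2 of which were DIO-HFD, the differences of the 10 were between -0.38 and -0.02, and that alternative was chosen after the values were seen.

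DIO-VSG was also set against the lean controls, and this comparison held the largest differences. The log2 difference of H2-Ob was 3.69 (SE 1.51), of H2-Oa 3.10 (SE 1.35), of H2-DMb2 3.09 (SE 1.35) and of Ciita 1.94 (SE 0.89). These were the 4 genes of 10 below an unadjusted P value of 0.05 by limma, a level at which 10.2% of all tested genes were higher. None passed the adjustment, at adjusted P values of 0.268 to 0.411 for the 10, and 0% of all tested genes did. H2-DMa differed by 1.07, H2-Aa by 0.94, Cd74 by 0.93, H2-Eb1 by 0.84, H2-Ab1 by 0.78 and H2-DMb1 by 0.74. These are differences of mean log2 values, in which very low libraries weigh heavily. H2-Ob was at 59.4 and 159 normalized counts in CON-LFD replicates 2 and 4. Its arithmetic means were 8340 ± 688 in DIO-VSG and 2680 ± 3890 in CON-LFD (SD, n = 4 each). The groups overlapped for 10 of 10, since CON-LFD replicate 3 reached the DIO-VSG range, and 2.59% of all tested genes were higher without overlap. The B cell markers had a median difference of 3.95, and 9 of 10 of them were below an unadjusted P value of 0.05, as were 9 of 10 T cell markers (median 2.76) and 4 of 6 lymph node stroma markers (median 3.36). The adipocyte markers were lower in mean in 10 of 10, with a median of -0.48. Of them 2 were lower without overlap, beside 941 of 21218 tested genes. In these lists 0 markers passed the adjusted threshold by limma. Once a term for the B cell score was added, the median of the class II genes was -0.13. Without CON-LFD replicate 2 the median went from 1.01 to 0.53, with H2-Ab1 at 0.36, Cd74 at 0.48, H2-DMa at 0.51 and Ciita at 1.27, and 0 of the 10 were then below an unadjusted P value of 0.05, beside 4.39% of all tested genes higher at that level and 0.00943% past the adjusted threshold. Without CON-LFD replicate 3 it was 1.36 and 9 of the 10 were below the unadjusted level, at which 17.9% of all tested genes were higher. In that fit 0 of the 10 passed the adjusted threshold by limma and 4.11% of all tested genes did, 873 of 21218. When libraries were weighted by their fit, H2-Aa, H2-DMb1, H2-DMb2 and Ciita passed by limma, at adjusted P values of 0.0352 to 0.0484, in a fit where 19.9% of all tested genes did.

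DIO-HFD was set against CON-LFD, groups that differ in body weight and in the diet eaten, and the differences were within the spread. H2-Aa differed by 0.24 (SE 0.53) and H2-Ob by 1.04 (SE 1.51), and the 10 genes lay between 0.12 and 1.04 with a median of 0.26. By limma, 0 of the 10 passed at either threshold, and adjusted P values were 0.818 to 0.942. Of all tested genes 0.0377% passed the adjusted threshold, 5.23% were higher at the unadjusted one and 1.76% were higher without overlap. Both groups held 2 of the 4 libraries with the lowest B cell score. The B cell markers had a median difference of 1.16, the T cell markers of 0.66, the macrophage markers of 0.24, the adipocyte markers of -0.44 and the mammary epithelial markers of -0.8. With a term for the B cell score, 9 of the 10 class II genes changed direction. With weighted libraries H2-Aa, H2-Eb1 and Ciita passed by limma, with 19.8% of all tested genes. Without CON-LFD replicate 2 the median of the 10 was -0.16, and without DIO-HFD replicate 1 it was -0.21.

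Dietary weight loss, DIO-LFD against DIO-HFD, left 4 of the 10 genes with a higher and 6 with a lower mean log2 value, a division that did not hold when libraries were left out. H2-Aa differed by -0.15 (SE 0.53) and H2-Ob by 1.32 (SE 1.51), and the median was -0.04. The 4 on the higher side were H2-DMb2, H2-Oa, H2-Ob and Ciita, whose geometric level in DIO-HFD was set low by replicates 2 and 3, although their arithmetic means were lower in DIO-LFD. Without DIO-HFD replicate 1 all 10 were higher, with H2-Aa at 0.26 and Cd74 at 0.38, and the median was 0.41. It was also above 0 without DIO-HFD replicate 4 (0.20) or DIO-LFD replicate 1 (0.27), and it was -0.51 without DIO-HFD replicate 3. By limma, 0 of 10 passed at either threshold, with adjusted P values of 0.904 to 0.998. Of all tested genes 0% passed the adjusted threshold, 3.16% were lower at the unadjusted one and 1.5% were lower without overlap. The B cell markers had a median difference of 1.5, the T cell markers of 0.83, the lymph node stroma markers of 1.54 and the macrophage markers of -0.06. Against CON-LFD, DIO-LFD differed by 0.09 (SE 0.53) for H2-Aa and by 2.36 (SE 1.51) for H2-Ob, with a median of 0.18. Without CON-LFD replicate 2 the median was -0.28, with H2-Aa at -0.31 and H2-Ab1 at -0.37, and without CON-LFD replicate 3 it was 0.53. Again 0 of 10 passed at either threshold by limma (adjusted P values 0.866 to 0.994), beside 0.00471% of all tested genes at the adjusted threshold, 3.23% higher at the unadjusted one and 1.73% higher without overlap. The medians of the same 4 marker lists against CON-LFD were 2.73, 1.27, 2.11 and 0.1, in that order. In the fit with a term for the B cell score the 10 class II genes were lower in DIO-LFD than in CON-LFD, with a median of -0.55, and none passed the adjusted threshold. The comparisons share groups, so they are not independent of one another.

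Beside the 10 genes stood a list of 29 further genes of class II processing and control, of which 28 were tested. By limma 0 of 28 passed the adjusted threshold in any of the 6 comparisons. At an unadjusted P value of 0.05, 2 were higher and 0 lower in DIO-VSG than in DIO-LFD, 4 higher and 1 lower in DIO-VSG than in CON-LFD, 1 higher and 1 lower in DIO-VSG than in DIO-HFD, and 0 in the other 3 comparisons. The shares of all tested genes that were higher at that level in these 3 comparisons were 4.3%, 10.2% and 5.05%, and 1148, 1602 and 1723 of 21218 were lower. In DIO-VSG against DIO-LFD, 13 of 28 lay higher without overlap and 2 lower, with a median of 0.33, beside 12.9% of all tested genes higher without overlap and 1236 of 21218 lower.

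Among the regulators, Rfx5, the DNA-binding subunit of the factor on the X box, was at 2550 ± 103 normalized counts in DIO-VSG, 1760 ± 242 in DIO-LFD, 1900 ± 914 in DIO-HFD and 1990 ± 501 in CON-LFD (SD, n = 4 each). For its partners Rfxap and Rfxank the log2 differences between DIO-VSG and DIO-LFD were -0.09 and 0.06, and between DIO-VSG and DIO-HFD -0.17 and 0.16. Rfxap was at 838 ± 22.8 in DIO-VSG and 968 ± 132 in CON-LFD, lower without overlap, a difference of -0.20 with an adjusted P value by limma of 0.333. Irf1, which carries the interferon signal to the Ciita gene, differed by 0.30 between DIO-VSG and DIO-LFD. Ifng itself was at 3.2 to 38.9 normalized counts in the 16 libraries.

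Among the processing enzymes, Ctss, the protease that trims the invariant chain, was at 8970 ± 1200 in DIO-VSG and 5980 ± 399 in DIO-LFD, without overlap, and Ifi30, the thiol reductase of the endosome, at 3870 ± 554 and 2550 ± 264. Ctsl and Lgmn, further endosomal proteases, lay on the other side, with differences of -0.29 and -0.30 and overlapping groups, as did Ctsd at -0.23. Ctsb, another of these proteases, was at 55700 ± 11200 and 73400 ± 9920, a difference of -0.41, lower without overlap (adjusted P value 0.534 by limma). March1, which marks class II molecules for removal from the surface, was at 3300 ± 757 in DIO-VSG and 1740 ± 286 in DIO-LFD, a difference of 0.91, without overlap. Its adjusted P value by limma was 0.590. March8, a related ubiquitin ligase, lay the other way, at 3550 ± 220 and 4590 ± 766, a difference of -0.36 without overlap, with an adjusted P value by limma of 0.510. It differed by -0.49 between DIO-VSG and DIO-HFD and by -0.41 between DIO-VSG and CON-LFD, at adjusted P values by limma of 0.298 and 0.268. Ctsb, Ctsd and March8, and Creb1 and Nfyb above, were chosen after their values were seen.

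The alpha and beta chain genes of I-E were at very different levels. H2-Ea-ps, the I-E alpha gene that is defective in C57BL/6 mice, was at 0 to 10.2 normalized counts, although H2-Eb1, its partner, was at 6658 or more in every library. H2-Eb2, a further beta chain gene of the region, ran from 8.5 to 2077, lowest in CON-LFD replicate 2 and highest in DIO-HFD replicate 1, and followed the wide pattern of DO. It was at 1370 ± 84.0 in DIO-VSG and 630 ± 238 in DIO-LFD, without overlap.

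The 10 tested genes outside the set whose log2 values were most like the mean of the class II genes over the 16 libraries were 5031414D18Rik (Pearson's r 0.996), Kmo (0.992), A530040E14Rik (0.990), Gm15228 (0.987), Irgc1, Bank1, 5430427O19Rik, Ptprc, Cd2 and Spock3 (0.985 each). Bank1 is a B cell signalling scaffold, Ptprc encodes the leukocyte antigen CD45 and Cd2 a lymphocyte adhesion molecule. With group means removed, r was 0.980 to 0.996 for these genes. The mean of the class II genes was taken over centred log2 values without scaling, so H2-DMb2, H2-Oa and H2-Ob weighed most in it.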

How the data were processed

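RNA-Seq libraries of 16 mice were analysed. The deposited values, called normalized counts, were on a log2 scale (5.36 to 21.85), a variance-stabilizing transformation made by the authors with DESeq2. Inverting it gave normalized counts, and 100.0% of values became whole reads when divided by the step of each library. The tolerance was 0.02 and grew with the count at high counts, so for the highest counts this check could not fail. The methods name STAR and salmon with a Gencode annotation, and the submitters' processing notes name TopHat2 2.0.7, HTSeq 0.5.3p9, DESeq2 and mm10; which made the table was not settled. Libraries were stranded. Size factors were 0.9036 to 1.2204, and no 2 replicates were alike within sampling noise. The design assumed normalized counts, so the test was fitted to the inverted values.

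Genes reaching 10 normalized counts in 4 or more libraries (21218) entered a limma-trend fit of log2(normalized count + 1) over all 16 libraries with group only (limma 3.58.1 in R 4.3.3), two-sided, with Benjamini-Hochberg adjustment over all tested genes of each comparison and a threshold of 0.05. The + 1 understates changes of low genes. All 10 class II genes were described, with named genes of the pathway list (1 of which is not reported here) and the 10 genes most like them. The members and lists were chosen with earlier results of these data known. The code was tested on simulated data. Alternatives were the deposited values, a pseudocount of 10, no filter, the 8 libraries of a comparison, a replicate block, quantile normalization, library weights, B cell or macrophage score as covariate, each library left out, and, added later, the 4 libraries of lowest B cell score left out. Positions and lengths came from GENCODE M21, in which 22176 symbols (95.7%) were found once, and promoter sequences from RefSeq (GRCm38.p6).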

Additional observations from a re-analysis of the deposited data

Results flagged for a closer look

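Within the groups of 4 libraries, 68 checks for a library far from the other 3 were made over the 10 genes and 7 marker scores, of which chance gives about 1 in 20, and 3 exceeded Dixon's 95% critical value. H2-Ob in DIO-LFD replicate 1 was at 1833 normalized counts against 3946 to 4087 in the other 3 (gap over range 0.938). The B cell score of the same library was -0.203 against 0.787 to 0.988 (0.831). The T cell score of DIO-VSG replicate 1 was 2.03 against 1.32 to 1.40 (0.887).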

How the results depend on the processing

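The deposited log2 values, a pseudocount of 10, no filter, quantile normalization and the replicate block left 0 of 10 genes past the threshold and changed no direction in any of the 6 comparisons. With the replicate block, the medians were 0.86 for DIO-VSG against DIO-LFD and 1.01 against CON-LFD. The replicate numbers did not pair the mice: r between same-numbered libraries had a median of 0.018 over 24 pairs, from -0.609 to 0.534. The count of genes past the threshold moved from 0 to 3 for DIO-HFD against CON-LFD and to 4 for DIO-VSG against CON-LFD with library weights, and to 3 for DIO-VSG against DIO-LFD with the 8 libraries alone. With each library left out the counts stayed at 0, although without CON-LFD replicate 3 the count over all tested genes went from 0 to 873 for DIO-VSG against CON-LFD and from 8 to 128 for DIO-HFD against CON-LFD.

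With a term for the B cell score, 7 genes changed direction in DIO-VSG against DIO-HFD: Cd74 -0.11, H2-DMb1 -0.09, H2-Ab1 -0.08, Ciita -0.06, H2-Aa -0.05, H2-Eb1 -0.05 and H2-DMa -0.02. Against CON-LFD 9 did: H2-Ab1 -0.29, Cd74 -0.25, H2-DMa -0.21, H2-Eb1 -0.18, H2-Aa -0.14, H2-DMb2 -0.12, Ciita -0.11, H2-Oa -0.08 and H2-DMb1 -0.05. In DIO-HFD against CON-LFD, H2-Aa became -0.10 and H2-Ob -0.10, and in DIO-LFD against CON-LFD -0.63 and -0.06. Without the 4 libraries of lowest B cell score, DIO-VSG against DIO-HFD became -0.38 (Ciita), -0.29 (Cd74), -0.25 (H2-Ab1), -0.25 (H2-Eb1), -0.24 (H2-Aa), -0.21 (H2-DMa), -0.16 (H2-DMb1), -0.10 (H2-Oa), -0.07 (H2-DMb2) and -0.02 (H2-Ob). In the same setting H2-Aa and H2-Ob were -0.33 and -0.36 in DIO-LFD against CON-LFD, and H2-Ob was -1.35 in DIO-LFD against DIO-HFD, where library weights gave -0.67. The cause was not tested.

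Leaving out 1 library at a time, H2-Aa ranged from -0.17 to 0.70 in DIO-HFD against CON-LFD, from -0.31 to 0.43 in DIO-LFD against CON-LFD and from -0.61 to 0.26 in DIO-LFD against DIO-HFD, and H2-Ob from -0.10 to 2.28 in the first. The median of the 10 ranged from 0.55 (without DIO-LFD replicate 1) to 1.00 in DIO-VSG against DIO-LFD, where every setting kept the direction of every gene. It ranged from 0.29 (without DIO-HFD replicate 3) to 1.23 in DIO-VSG against DIO-HFD and from 0.53 (without CON-LFD replicate 2) to 1.36 in DIO-VSG against CON-LFD. At 46907377 or more reads a library, depth limits only the lowest values, such as the 19 reads of H2-Oa in DIO-HFD replicate 3, and the 4 mice per group and the uneven spread limit what these comparisons show.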
